A study of Homo sapiens with 30 samples.

Results

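H3K27me3, trimethylation of lysine 27 on histone H3, was mapped in K562 cells, and the regions described here are the short ones that were found in each of 4 peak lists. Peaks of the 4 lists were merged where they shared at least 1 bp on chromosomes 1 to 22 and X, which gave 134971 merged regions. A merged region was kept when a peak of all 4 lists overlapped it and it was narrower than 10000 bp. This left 16004 reproducible narrow regions, 11.9% of the merged regions, which covered 41.1 Mb. The regions were thus chosen by the positions of peaks in these 4 lists and by their merged width, so their number, width, strength and positions in these 4 lists are given as a description with no test.

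H3K27me3 is written by the Polycomb repressive complex PRC2, whose catalytic subunit is EZH2 or EZH1, and marks genes that are held silent. It is known both as wide domains over silent gene clusters and as short stretches, often at CpG-rich promoters. H3K27ac, acetylation of the same lysine, marks active promoters and enhancers and cannot sit on the same histone tail as trimethylation of that residue. Both can still be found at one place in a population of cells, when alleles or cells differ.

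K562 is an established human chronic myeloid leukaemia line. CUT&Tag uses an antibody to bring a transposase to the chromatin it binds, so that sequenced fragments come from the marked sites, and 500000 cells went into each experiment per the labels. The H3K27me3 antibody CST9733 was used at 1/100 in cells without trichostatin A (TSA, a histone deacetylase inhibitor), with DNA recovered on a column or with SDS and libraries amplified for 11 or 13 PCR cycles. A further CST9733 library, with SDS and 15 cycles, took no part in choosing the regions. H3K27ac was profiled in 25 libraries with 4 antibodies: ab177178, ab4729 and Active Motif 39133 at 1/100, and Diagenode C15410196 at 1/50 or 1/100. Of these, 16 were untreated at 11 or 13 cycles with both extractions, and 9 were at 15 cycles with SDS, 4 of them with TSA. Each condition had 1 library, and no source used here says whether libraries came from separate cultures.

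With CST9733, column extraction gave 73663 peaks at 11 cycles and 69236 at 13 cycles. SDS extraction gave 65283 peaks at 11 cycles, 77659 at 13 cycles and 106997 at 15 cycles. Per the labels, reads were downsampled to equal depth before calling at 11 and 13 cycles, but their number is not known. The column list at 11 cycles stood apart from the other 3. Among the narrow regions found in it alone, 8.81% had their centre in an H3K27ac peak of at least 1 of the 16 lists at 11 and 13 cycles. The same share was 1.70% for regions of the SDS list alone at 11 cycles, and 0.736% and 1.28% for those of the column and the SDS list alone at 13 cycles. Without this list, 19585 narrow regions were found in all 3 others, 84.8% of them were overlapped by it, and 96.3% of the 16004 regions overlapped one of them.

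The reproducible narrow regions were wider than regions found in fewer lists. Their median width was 2128 bp, with quartiles of 1498 and 3175 bp, and 5.51% were under 1000 bp. The median was 1207 bp for the 14338 narrow regions of 3 lists, 849 bp for the 25267 of 2 lists and 551 bp for the 79171 of 1 list. Regions merged from more lists have more peaks to join, so this order is in part fixed by the merging. The 191 broad regions found in all 4 lists, 10000 bp or wider, had a median of 12895 bp. The limit did not fall in a gap of the distribution. The widest reproducible narrow regions measured 9981 bp (chr8:7110567-7120547 in hg19, as are all coordinates here) and 9971 bp (chr11:125239051-125249021). The narrowest broad ones measured 10001 bp (chr11:117383503-117393503) and 10004 bp (chr5:1223888-1233891).

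**Figure D1:**
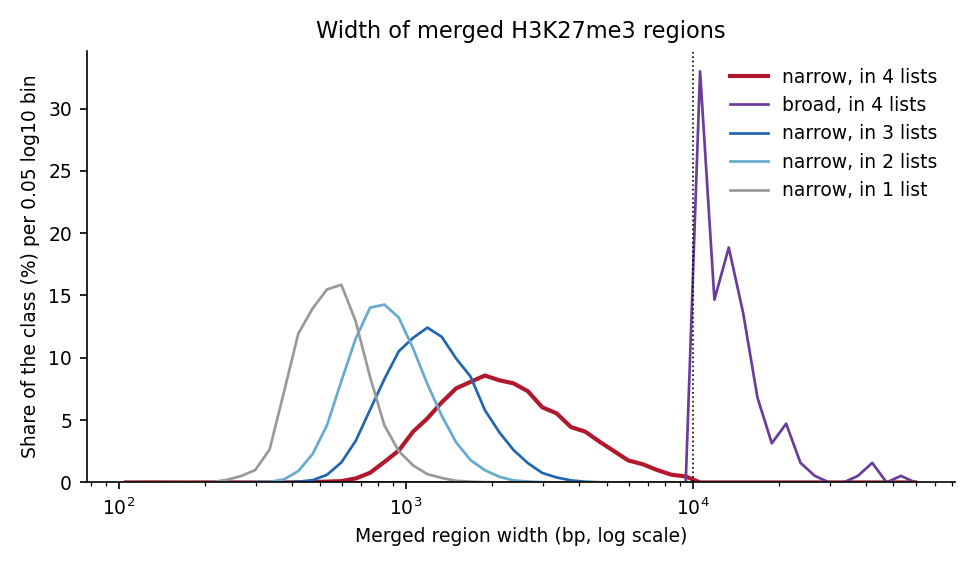
Share of each class of merged regions (y axis, percent of the class) by width (x axis, bp, log scale), for narrow regions in 4, 3, 2 or 1 lists and broad regions in 4 lists; the dotted line is the 10000 bp limit. Narrow regions in 4 lists have a median of 2128 bp and run up to the limit without a gap.

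Being overlapped by 4 lists did not require 4 overlapping peaks. In 12432 of the 16004 regions (77.7%) at least 1 base was covered by a peak of every list. In the other 3572 regions (22.3%) no base was, and peaks of different lists were joined only through each other. Where a common stretch existed, its median length was 430 bp, with quartiles of 240 and 808 bp, and it made up a median of 21.9% of the region. A single peak per list was found in 5252 regions (32.8%), and 3816 of these also had a common stretch. In 3864 regions (24.1%) each list covered at least 50% of the width. The 4 lists together placed a median of 5 peaks in a region, with quartiles of 4 and 8.

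Strength was read from the total signal that the authors' peak caller SEACR wrote for each peak, as a rank percentile within its list, where the strongest peak stands near 100. The strongest peak of a reproducible narrow region had a median percentile of 82.4 in the column list and 78.4 in the SDS list at 11 cycles, and of 80.6 in the column list and 83.0 in the SDS list at 13 cycles. The share of these regions with a peak in the top 10% was 32.8% for column and 28.3% for SDS at 11 cycles, and 30.8% for column and 34.0% for SDS at 13 cycles. The regions were thus mostly stronger than the middle of each list, yet 15.95% to 21.8% of them had their strongest peak in the weaker 50% of a list. They took up 33.3% to 39.5% of the peaks in each list.

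The signal behind a typical region was shallow. The median of the maximum signal, which is the height of the tallest point of a peak, was 4 in the column list and 4 in the SDS list at 11 cycles, and 4 in the column list and 5 in the SDS list at 13 cycles. It was 3 or less for 27.9% of the regions in the column list and 43.7% in the SDS list at 11 cycles, and for 28.8% in the column list and 18.1% in the SDS list at 13 cycles. The order of the regions also differed between lists. Spearman's rho of the percentile between 2 lists lay between 0.478 and 0.561 over the 16004 regions (Pearson's r 0.352 to 0.410). These points share the merging and the cells, and neighbouring regions are not independent. Within a region, the highest and lowest percentile over the 4 lists were a median of 32.3 apart.

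Wider regions ranked higher, with a rho of 0.692 between width and the mean percentile over the 4 lists. Sorted by mean percentile, the strongest 25% had a median width of 3905 bp and the weakest 25% of 1440 bp. Total signal sums over the length of a peak, so this relation is partly built into the measure.

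The 10 strongest regions by mean percentile lay at 3 places. First was chr5:10003-11881, with maximum signals of 152 and 168 in the column and SDS lists at 11 cycles and 81 and 91 in the column and SDS lists at 13 cycles. It also lay in peaks of all 25 H3K27ac lists. The next 8 lay side by side on chromosome 8 between 86726452 and 86840921. The strongest of them, chr8:86743932-86752721, had maximum signals of 82 and 60 in the column and SDS lists at 11 cycles, and 56 and 62 at 13 cycles. Its centre lay in peaks of 13 H3K27ac lists, and some part of it was overlapped by 20. The tenth, chr1:121484055-121485434, again lay in peaks of all 25 H3K27ac lists. Each of the 8 on chromosome 8 was overlapped by 13 to 20 H3K27ac lists. The first and the tenth lay within 100 kb of a chromosome end or of a peak-free span of at least 1 Mb. No filter for repeated or poorly mappable sequence was applied here, so high rank need not mean strong H3K27me3 at these places.

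Strong regions with a single peak in every list, a common stretch, no H3K27ac overlap and over 100 kb from a chromosome end were looked for after the values had been seen. The first was chr7:150496534-150502098, 5565 bp wide, with maximum signals of 16 and 14 in the column and SDS lists at 11 cycles and 11 and 11 at 13 cycles. The second was chr3:14859980-14863573, 3594 bp wide, with 14 and 11 in the column and SDS lists at 11 cycles and 13 and 12 at 13 cycles. The third was chr18:20756050-20758890, 2841 bp wide, with 13 and 10 at 11 cycles and 10 and 17 at 13 cycles, in the same order. All 3 stood above percentile 98 in the list at 15 cycles, at 99.3, 98.9 and 99.3.

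The weakest region, chr15:32768256-32769391, had percentiles of 1.296 and 5.36 in the column and SDS lists at 11 cycles and 10.1 and 16.8 in the column and SDS lists at 13 cycles. Its maximum signals were 2 and 3 at 11 cycles and 2 and 3 at 13 cycles, and no base was shared by all 4 lists. The least even region, chr9:135732289-135735107, stood at 92.4 and 93.3 at 11 cycles and at 0.105 and 97.3 at 13 cycles. Its column peak at 13 cycles covered 10.1% of the region, and no base of the region was shared by all 4 lists.

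The list at 15 cycles gave the first measure outside the rule. A SEACR peak of this list overlapped 15763 of the 16004 regions, 98.5% (Wilson 95% interval 98.3% to 98.7%, counting error only), where 62.9% of all merged regions were overlapped. The share was 100% for broad regions, 91.1% for narrow regions of 3 lists, 75.7% for those of 2 lists and 46.4% for those of 1 list. Requiring that a 15-cycle peak cover at least 50% of the region left 93.8% of the reproducible narrow regions, against 54.2% of all merged regions. Peaks called by MACS2 on the same library overlapped 15872 of the regions, 99.2%, against 66.7% of all merged regions. With 1 library there is no test, and the interval takes regions as independent, though neighbouring ones are not. The share was also lower at narrower regions, with 93.9% for regions of 500 to 1000 bp and 97.5% for those of 1000 to 2000 bp.

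Regions that recurred in 4 lists were also stronger in the library that did not choose them. Among regions overlapped by its SEACR list, the median percentile was 92.6 for the reproducible narrow regions, against 99.8 for broad regions, 80.4 for narrow regions of 3 lists, 70.6 for those of 2 and 60.5 for those of 1. The classes differ in width and were not matched for it here. Among the reproducible narrow regions this median was 81.5 at 500 to 1000 bp, 86.8 at 1000 to 2000 bp and 99.4 at 7500 to 10000 bp. MACS2 gave a median −log10 q-value of 3.71 at these regions, against 5.63 at broad regions and 3.08, 2.83 and 2.59 at narrow regions of 3, 2 and 1 lists. At a −log10 q-value of at least 5, MACS2 kept 15.8% of the reproducible narrow regions, 66.0% of the broad ones and 1.36% of those of 1 list. Seen from the 15-cycle list, 73.9% of peaks in its strongest 10% overlapped a reproducible narrow region, and 2.74% of those in its weakest 10% did. The order of strength carried over in part, with a rho of 0.537 between the mean percentile over the 4 lists and the percentile at 15 cycles (15763 regions, Pearson's r 0.455).

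**Figure D2:**
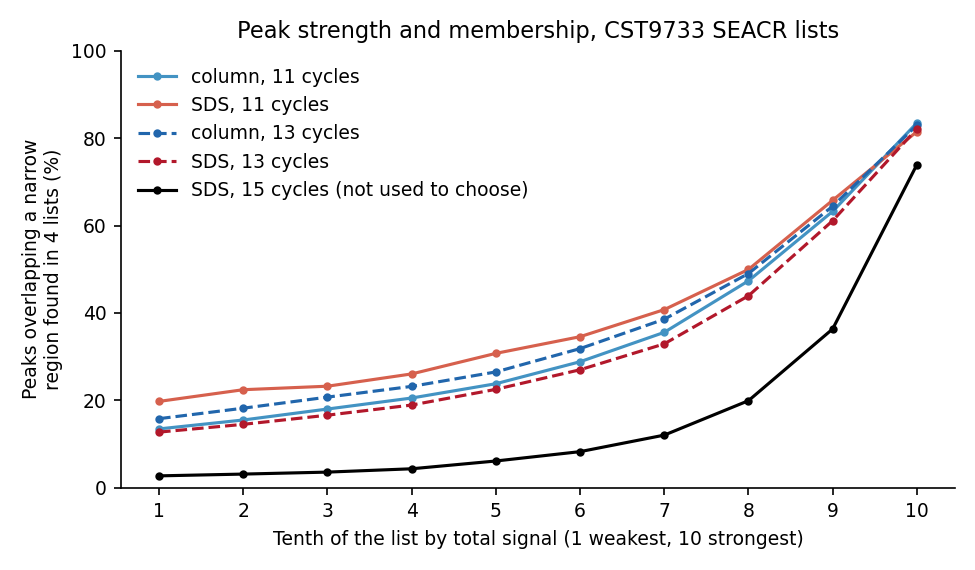
Share of peaks that overlap a reproducible narrow region (y axis, percent) by rank in total signal (x axis, 10 equal steps of the list from weakest to strongest), for the 4 lists that chose the regions and the 15-cycle list that did not. At 15 cycles the share is 2.74% in the weakest step and 73.9% in the strongest.

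The regions without a common stretch were weaker but were nearly as often found at 15 cycles. Their share in the 15-cycle SEACR list was 97.5%, against 98.8% for regions with a common stretch. Their median percentile there was 88.1, against 93.6. Only 95 of the 16004 regions (0.594%) lay in neither 15-cycle list. The strongest of these, chr1:206680277-206683119, stood at percentiles of 89.2 and 88.6 in the column and SDS lists at 11 cycles and 92.9 and 91.7 in the column and SDS lists at 13 cycles. The second, chr2:219848625-219849815, stood at 87.5 and 77.8 at 11 cycles and 88.2 and 83.3 at 13 cycles.

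Narrow in these lists did not mean isolated. The median gap to the nearest other reproducible narrow region was 2.108 kb, 74.8% had one within 10 kb, and 5.70% had none within 100 kb. A reproducible narrow region lay within 10 kb of 89.5% of broad regions, 61.1% of narrow regions of 3 lists, 49.5% of those of 2 lists and 33.4% of those of 1 list. Measured within each class, the median gap was 7.348 kb between narrow regions of 3 lists, a class of similar size, 4.995 kb between those of 2 lists, 2.319 kb between the more numerous ones of 1 list and 383.7 kb between broad regions. Within 10 kb of another of their own class lay 83.4% of narrow regions of 1 list, a higher share than the 74.8% of reproducible narrow regions. Stronger regions were more crowded: 85.4% of the strongest 25% and 64.3% of the weakest 25% had another within 10 kb.

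**Figure D3:**
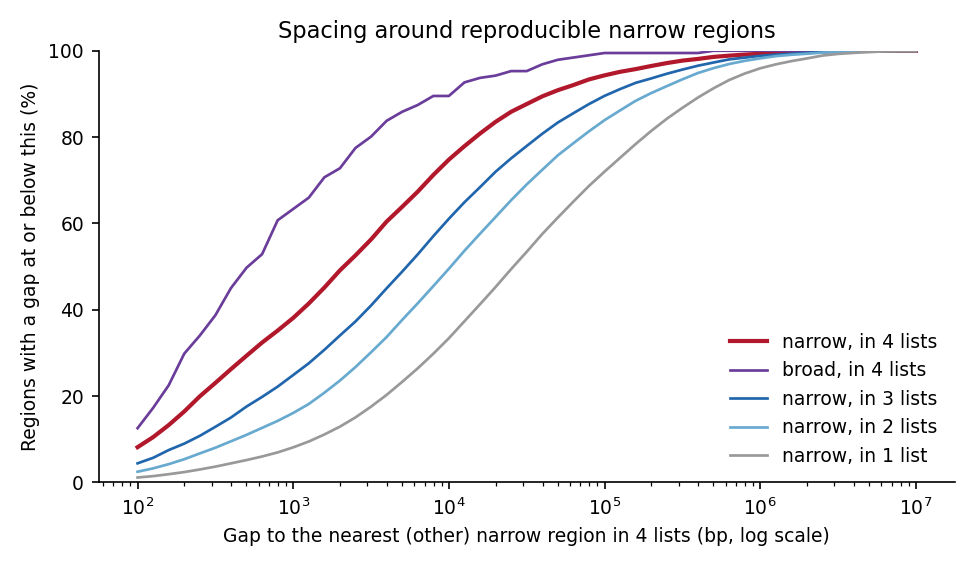
Cumulative share of regions (y axis, percent) by gap to the nearest reproducible narrow region (x axis, bp, log scale), for reproducible narrow regions themselves, broad regions, and narrow regions of 3, 2 and 1 lists. At 10 kb the shares are 74.8%, 89.5%, 61.1%, 49.5% and 33.4%.

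Linking regions less than 10 kb apart gave 3159 chains of 2 or more, with 11968 regions, and left 4036 regions (25.2%) alone. Chains of at least 5 regions numbered 731 and held 5672 regions, and chains of at least 10 numbered 131 and held 1896. From the start of the first region to the end of the last, 1949 chains were 10 kb or longer and held 58.3% of all regions. A further measure came from the 15-cycle library, where the MACS2 peak over a region had a median width of 5903 bp and the SEACR peak 2836 bp. A MACS2 peak of at least 10 kb lay over 4505 of the regions, 28.4% of those overlapped. In the 15-cycle SEACR list, 4116 regions (25.7%) shared a peak with at least 1 other. The label narrow thus holds for the merged region and not always for the marked stretch around it.

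The longest chain held 49 regions on chromosome 22 between 22359154 and 22612393, and 49.7% of its 253.2 kb was covered. The next held 35 regions on chromosome 22 between 23062704 and 23238945, with 51.7% covered. The third, on chromosome 8 between 86726452 and 86840921, held 34 regions with 90.4% covered, and includes the 8 strong neighbours named above. No broad region lay in any of these 3 chains. All regions of all 3 chains were overlapped by the 15-cycle SEACR list, which placed 71, 42 and 39 peaks in them. H3K27ac lay at the centre of 28 of 49, 32 of 35 and 27 of 34 of their regions in at least 1 of 25 lists. This share was 8.99% over all reproducible narrow regions and 5.50% over all merged regions. In the 16 lists at 11 and 13 cycles the counts were 16, 27 and 11. The most H3K27ac lists at any 1 region were 5, 7 and 13 of 25.

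The regions were also unevenly spread over larger distances. Of the 1 Mb bins with a merged region, the median held 2 reproducible narrow regions, with quartiles of 0 and 8. The 238 bins with at least 20 of them held 8303, which is 51.9%. The fullest was chromosome 22 from 22000001 to 23000000, with 96 regions over 26.7% of the bin. Next were chromosome 5 from 1000001 to 2000000 with 93 regions and chromosome 7 from 155000001 to 156000000 with 85. Chromosome ends were taken as the first and last peak of any list on each chromosome. On chromosomes 13, 14, 15, 21 and 22 the first peak lay between positions 9485780 and 20001849, away from the start of the assembly. Within 5 Mb of such an end, 7.80% of the analysed span held 25.5% of the reproducible narrow regions. The same stretches held 16.8% of all merged regions, 39.8% of broad regions and 19.996%, 17.0% and 14.4% of narrow regions of 3, 2 and 1 lists.

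Chromosome 22 was densest, at 16.4 regions per Mb of the span between the first and last peak of any list, followed by chromosome 21 at 10.8, chromosome 17 at 8.23 and chromosome 1 at 8.005. The density over all chromosomes was 5.42. Lowest were chromosome X at 0.851, chromosome 13 at 1.98 and chromosome 4 at 2.52. The share of merged regions that were reproducible and narrow was 4.54% on chromosome X, 17.5% on chromosome 22 and 18.9% on chromosome 21. Over the 23 chromosomes, density followed that of all merged regions (Pearson's r 0.909, rho 0.926) and of broad regions (r 0.898, rho 0.877). All these densities come from the same lists. Width varied little, with medians of 1834.5 to 2332 bp. On chromosome 9 the first 10% of the span held 0.281% of its 711 regions, and on chromosome 21 0.240% of its 417. The share of all merged regions in these stretches is not given here. Peak signal was not corrected for DNA copy number.

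**Figure D4:**
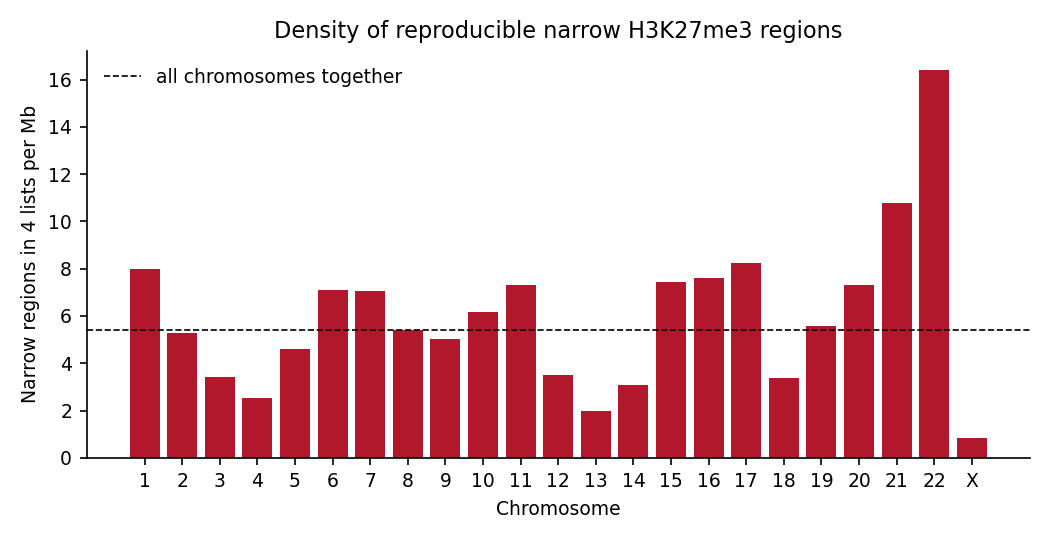
Reproducible narrow regions per Mb (y axis) on each chromosome (x axis), with the value for all chromosomes together as a dashed line. Chromosome 22 stands highest at 16.4 per Mb and chromosome X lowest at 0.851.

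H3K27ac took no part in the choice of regions. The centre of a region was used, since a wide region is hit more often than a short one. In the 16 lists at 11 and 13 cycles, 590 reproducible narrow regions (3.69%) had their centre in a peak of at least 1 list, where 2.86% of all merged regions did. In at least 1 of all 25 lists it was 1438 regions (8.99%), against 5.50% of all merged regions. Few were marked in most lists: 106 regions (0.662%) in at least 13 of 25 lists, against 0.953% of all merged regions. At stricter cuts the order turned. In at least 20 lists it was 74 regions (0.462%), against 0.421% of all merged regions. In every 1 of the 25 lists it was 26 regions (0.162%), against 0.0637%. The larger part of the overlap came from single lists, since 937 of the 1438 regions were in 1 list alone. Of those 937, 451 were in ab4729 with TSA at 15 cycles, 269 in ab177178 at 15 cycles, and 112 and 79 in ab177178 at 11 cycles with column and SDS.

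By list, the share of reproducible narrow regions with H3K27ac was 5.59% with ab4729 and TSA at 15 cycles, and 4.08% with untreated ab177178 at 15 cycles. It was 2.15% and 2.13% with ab177178 at 11 cycles, on column and with SDS. The other 21 lists gave 0.344% to 1.00%. Over all merged regions the 4 high lists gave 3.38%, 2.55%, 1.40% and 1.53% in the same order, all below the reproducible narrow regions. In 18 of the other 21 lists the reproducible narrow regions lay below all merged regions, as with untreated ab4729 at 15 cycles, where the shares were 1.00% and 1.92%. The mean over the 4 lists at 11 and 13 cycles was 1.39% ± 0.868 for ab177178, 0.751% ± 0.153 for Active Motif 39133, 0.650% ± 0.034 for Diagenode and 0.494% ± 0.119 for ab4729 (SD, n = 4 lists).

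**Figure D5:**
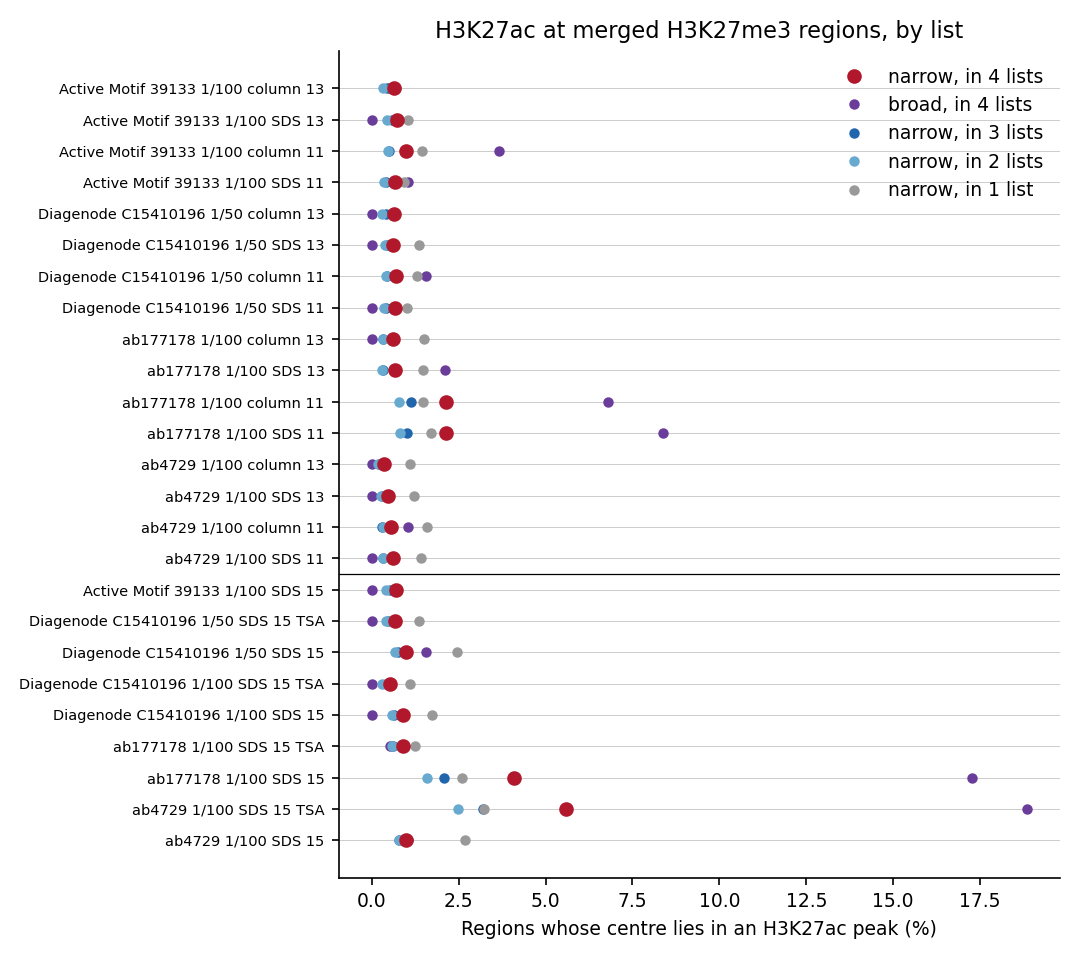
Share of regions whose centre lies in an H3K27ac peak (x axis, percent) in each of 25 lists (rows: antibody, dilution, extraction, PCR cycles; 11 and 13 cycles above the line, 15 cycles below), for reproducible narrow regions and 4 other classes of merged regions. Reproducible narrow regions lie at 0.344% to 1.00% in 21 lists and at 2.13% to 5.59% in the other 4.

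H3K27ac was more frequent at reproducible narrow regions than at narrow regions of 3 or 2 lists. Over the 16 lists at 11 and 13 cycles the mean share was 0.821% ± 0.531 at reproducible narrow regions (SD, n = 16 lists). It was 0.468% ± 0.253 at narrow regions of 3 lists and 0.399% ± 0.175 at those of 2 lists, and 0.956% ± 0.260 over all merged regions, most of which come from 1 list. The differences of 0.353 and 0.421 percentage points had the same sign in 16 of 16 lists (exact two-sided sign-flip permutation test, adjusted p = 6.10e-05 for each, over 4 comparisons). With the 4 antibodies as the unit, the adjusted p was 0.167 for each, and 4 units cannot give an unadjusted p below 0.125. The lists are conditions and not biological replicates, so p measures the spread over lists only. Without regions near chromosome ends and peak-free spans of at least 1 Mb the differences were 0.212 and 0.2497, with the same adjusted exact p of 6.10e-05. Among regions of 1000 to 5000 bp only, which brings the classes closer in width, they were 0.226 and 0.196 (adjusted exact p = 9.16e-05 for each). When any overlapping base counted they were 0.646 and 0.734 (adjusted exact p = 6.10e-05 for each).

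The other comparisons did not give a stable direction. Against the 0.821% at reproducible narrow regions, narrow regions of 1 list had a mean share of 1.25% ± 0.309, and the share was lower at reproducible narrow regions in 14 of 16 lists (difference -0.427, adjusted p = 0.00614, exact sign-flip permutation test). The difference turned to 0.562 (adjusted p = 4.07e-05, same exact test) when the single-list regions of the column list at 11 cycles were left out, and to 0.427 (adjusted p = 4.58e-05) when that list was left out altogether. Among regions of 1000 to 5000 bp it was -1.08 (adjusted exact p = 9.16e-05). The mean share at broad regions was 1.57% ± 2.58, and reproducible narrow regions were higher in 9 lists and lower in 7 (difference -0.750, adjusted p = 0.199, same exact test). The mean at broad regions was carried by ab177178, at 4.32%, against 0.262% to 1.31% with the other antibodies, and without ab177178 the difference was -0.0228. When any overlapping base counted, the difference from broad regions was -7.24 (adjusted p = 4.07e-04, same exact test), a measure on which wider regions are hit more often.

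Within the reproducible narrow regions, H3K27ac was more frequent where the H3K27me3 lists were stronger. The share with H3K27ac in at least 1 of the 16 lists was 7.25% in the strongest 25% by mean percentile, 3.72% and 2.27% in the next 25% and the one after, and 1.4996% in the weakest 25%. It was 4.31% in regions with a stretch common to all 4 lists and 1.51% in those without. These are descriptions, since neighbouring regions share their surroundings.

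Chromosome 22 stood apart. Of its 577 reproducible narrow regions, 41.2% had H3K27ac in at least 1 of 25 lists, against 7.78% on the other chromosomes, and 21.3% against 3.03% in at least 1 of the 16 lists. This came from a few lists. With ab4729 and TSA at 15 cycles the share was 30.5% on chromosome 22 and 4.66% elsewhere, with ab177178 at 15 cycles 28.9% and 3.15%, and with ab177178 at 11 cycles 10.9% and 1.82% on column and 13.0% and 1.72% with SDS. With untreated ab4729 at 15 cycles it was 2.253% and 0.953%, and with Diagenode at 1/50 and 15 cycles, untreated, 1.04% and 0.998%. In the fullest 1 Mb bin named above, 67 of 96 regions (69.8%) had H3K27ac in at least 1 of 25 lists, and none in more than 11. The share over all merged regions of chromosome 22 is not given here, so the excess cannot be called particular to the reproducible narrow regions. Chromosome 22 also had the most merged regions, 93.6 per Mb, and the most broad regions, 0.540 per Mb. Peaks were not corrected for DNA copy number, whose part in these shares was not tested.

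The 106 regions with H3K27ac in at least 13 lists had a higher median signal and a smaller median width than those in fewer lists or none. Their mean maximum H3K27me3 signal over the 4 lists had a median of 8.75, against 4.25 for the 14566 regions with no H3K27ac list, and their median width was 1751 bp against 2121.5 bp. For the 1332 regions in 1 to 12 lists, the median signal was 5.25 and the median width 2221.5 bp. Of these 106, 43 (40.6%) lay within 100 kb of a chromosome end or of a peak-free span of at least 1 Mb, against 86 (0.590%) of the regions with no H3K27ac list. For the 26 regions in all 25 lists, the median signal was 15.1 and 16 lay at such places. Examples of the 26 are chr5:10003-11881, chr1:121484055-121485434, chr1:564276-570304, chrX:155259603-155260464 and chr7:61967228-61971893. Of these, chr1:564276-570304 was not at such a place. The narrowest region of all, chr2:149639295-149639420 with 126 bp, looked up after the values had been seen, was in 18 H3K27ac lists and in no 15-cycle SEACR peak. A 15-cycle MACS2 peak with a −log10 q-value of 8.16 did overlap it. Without regions near chromosome ends and peak-free spans, 15850 reproducible narrow regions remained.

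The protocol of the H3K27ac libraries was compared at these regions in matched pairs. Column libraries had H3K27ac at 0.825% ± 0.563 of the regions and SDS libraries at 0.817% ± 0.537 (SD, n = 8 pairs). The difference of 0.0078 percentage points was positive in 4 of 8 pairs (exact sign-flip permutation test, adjusted p = 1.00 over 3 comparisons). Libraries at 13 cycles had H3K27ac at 0.585% ± 0.124 of the regions and those at 11 cycles at 1.06% ± 0.680 (SD, n = 8 pairs). The difference of -0.472 was negative in 7 of 8 pairs and missed the threshold after adjustment (exact p = 0.0234, adjusted 0.0703), and it was -0.128 without ab177178. TSA libraries had H3K27ac at 1.92% ± 2.45 of the regions and untreated ones at 1.75% ± 1.56 (SD, n = 4 pairs). The share was higher with TSA in 1 of 4 pairs, ab4729, where it was 5.59% against 1.00% (mean difference 0.173, adjusted exact p = 1.00). With 4 pairs the exact test cannot give an unadjusted p below 0.125. The mean difference with TSA was -1.30 without ab4729 and 1.29 without ab177178.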

How the data were processed

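The submitters' processing notes name the genome build hg19 and the tools Bowtie2 2.2.9, Trim Galore 0.6.6, bcl2fastq, SAMtools 1.3.1, Picard 2.6.0, MACS2, SEACR and bedtools 2.25.0, which the authors used in an order not stated. Peaks were called per library without duplicate reads, per the labels. Mode and threshold of SEACR, and the read depth, are not stated in the labels or notes. Precision from depth is therefore unknown. The SEACR lists, as deposited, give a total and a maximum signal per peak, the authors' own values. The deposited MACS2 list of the H3K27me3 library at 15 cycles gives a −log10 q-value. The MACS2 lists of 5 H3K27ac libraries were not used here.

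On chromosomes 1 to 22 and X, peaks were merged and classed by number of lists and a width limit of 10000 bp. A region's strength in a list was the rank percentile of its strongest overlapping peak by total signal. Wilson 95% intervals of shares cover counting error over regions alone. They take regions as independent, though neighbouring regions are not. PCR reads lacking molecular identifiers are not independent molecules either. Shares were compared by exact two-sided sign-flip permutation tests over H3K27ac lists with Benjamini-Hochberg adjustment (over 4 class and 3 protocol comparisons). The regions, classes and named places were chosen with earlier results of these data known. Named regions were the 10 of highest and 5 of lowest mean percentile, the 5 of largest spread, the 5 with most H3K27ac lists, the 5 strongest in neither 15-cycle list, the 5 on each side of the width limit, and the 3 fullest bins and longest chains. Some of these are printed, and regions outside the rule are marked where named.

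The gene annotation at hand uses a different assembly, so no gene or sequence was assigned and marker and Polycomb gene lists were not used here. Alternatives covered the width limit, merging within 1 kb, weak peaks, required cover, widths of 1000 to 5000 bp, the lists and chromosomes included, any-base overlap and the unit of the test. Scripts ran in Python 3.11.15 with scipy 1.17.1, numpy 2.4.6 and pandas 2.3.3, and plots used matplotlib 3.10.9. Merging and overlap were tested on simulated data, and bedtools 2.31.1 counted the same 16004 regions.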

Additional observations from a re-analysis of the deposited data

Results flagged for a closer look

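The difference between 13 and 11 cycles in the share of regions with H3K27ac was larger with ab177178 than with the other antibodies. With ab177178 it was -1.50 percentage points, with pair values of -1.55 and -1.46. With the other 3 antibodies it averaged -0.128, between -0.337 and 0.0437 in 6 pairs. The gap of -1.37 had an exact permutation p of 0.0357, the smallest that 28 regroupings can give, and an adjusted p of 0.286 over 8 such comparisons, so it fails the correction.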

How the results depend on the processing

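By replicate number, no paired analysis was possible because the labels give none and each condition had 1 library, so pairs were matched by condition. Of the values recomputed under other settings, 66 were classed as unchanged, 21 as moved, 5 as reversed, 6 as weaker and 1 as stronger. A difference was unchanged if it did not reverse and, where tested, kept its side of the threshold. Counts, widths and shares have no direction, and for them unchanged means a limited change in value. The mean H3K27ac share, for instance, went from 0.821% to 1.20% when any base counted and was classed as unchanged. Among the 66 were 45 differences between classes or protocols, of which 18 changed in size by over 1.5 times. The number of regions was 3864 when each list had to cover at least 50% of a region. Median width was 2013 bp under a 5000 bp limit, 4116 bp after merging within 1000 bp, 2340 bp without the weakest 25% of each list, 2579 bp at 50% cover and 1685 bp without the column list at 11 cycles. For the last 4 settings in that order, the share overlapped at 15 cycles was 97.96%, 99.26%, 99.22% and 97.0% by SEACR, and 98.8%, 99.57%, 99.48% and 98.2% by MACS2. The MACS2 share was 15.8% at a −log10 q-value of at least 5. The share with another region within 10 kb was 71.2% under the 5000 bp limit, and 54.0%, 70.9%, 47.8% and 77.5% under the same 4 settings. The mean H3K27ac share was 1.56% at 50% cover. The difference from broad regions was -7.24 (adjusted exact p = 4.07e-04) when any base counted and 0.236 (adjusted p = 0.0913) without chromosomes 9, 22 and X, and -0.0228 without ab177178. Among regions of 1000 to 5000 bp, the differences from narrow regions of 3, 2 and 1 lists were 0.226, 0.196 and -1.08. With 4 antibodies as the unit, the differences from narrow regions of 3 lists (0.353), 2 lists (0.421) and 1 list (-0.427) each had an adjusted p of 0.167. The difference from narrow regions of 1 list was -0.207 (adjusted exact p = 0.396) when any base counted, -0.169 (adjusted p = 0.235) without the weakest 25% of peaks and -0.291 (adjusted p = 0.0833) without ab4729. It was 0.427 without the column list at 11 cycles and 0.562 without that list's own regions, an alternative chosen after seeing the data. Column minus SDS was -0.0260 without Active Motif, and TSA minus untreated was -1.30 without ab4729 and 1.29 without ab177178. These p-values are from exact sign-flip permutation tests, and the cause of each change was not tested. Without the column list the regions of 3 lists become the set itself, no TSA pair used Active Motif, and a limit of 5000 bp leaves no broad region, so those values could not be had. Read depth is unknown, and most regions rest on a maximum signal of a few overlapping fragments, which limits how finely they can be ranked.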
